A study of Mus musculus with 4 samples.

Results

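Cytokine and chemokine genes that mast cells are known to express were followed across 4 preparations of BALB/c mouse mast cells, with 1 array for each. The genes were a named list of 36 interleukins, chemokines, TNF family members, colony-stimulating factors and related ligands. A gene was kept when the platform annotation gave it a probe set with that symbol alone, which held for 35 of the 36 and left 22180 genes on the array in all. Areg, the growth factor amphiregulin, was the gene with no such probe set. One group was intestinal mast cells of naive mice, taken from small-intestinal lamina propria and gated on the flow cytometer for FceRI (the IgE receptor) and c-Kit (the stem cell factor receptor). The other 3 groups were bone marrow-derived mast cells (BMMCs), cultured over 3 to 4 weeks in stem cell factor and interleukin-3 (10 ng/ml of each). They were then kept for 6 days in coculture with Chinese hamster ovary (CHO) cells expressing the mouse Notch ligand Dll1, with TGF-beta1 at 5 ng/ml, or in normal medium as the control. The Dll1 cells were afterwards selected for c-Kit with magnetic beads, and the labels name no selection for the TGF-beta1 and control cultures. The age, sex and number of mice behind each array are not given in the labels. Hamster RNA from the feeder cells was not told apart from mouse RNA on the Dll1 array.

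Mast cells release mediators in phases. Granule contents leave within minutes, and cytokines and chemokines follow, most of them made by new transcription after the IgE receptor or other receptors have been engaged. CC chemokines draw in monocytes, T cells and eosinophils, CXC chemokines draw in neutrophils, and interleukin-4 and interleukin-13 are the classical type 2 cytokines. Transcription of many of these genes depends on NF-kB, NFAT and AP-1 factors, and their transcripts are often short-lived because proteins such as tristetraprolin (encoded by Zfp36) bind AU-rich elements in them. A transcript level does not say how much protein was stored or released.

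Levels are the deposited log2 values, and every fold and call compares a gene with itself on another array. Levels of different genes that are listed together or summed describe the deposited values and do not rank the genes. The limit of background on an array was the 95th percentile of its 1443 olfactory, vomeronasal and taste receptor probe sets. It was 5.11 for intestinal mast cells, 5.13 for Dll1-cocultured, 5.21 for TGF-beta1-treated and 5.12 for control BMMCs. A gene was called higher or lower when at least 1 of the 2 arrays compared had it over the limit and it differed by at least 2-fold, with any value under the limit raised to it. A fold against an array at its limit is a bound and is given as "at least". With 1 array for each group there is no replicate error and no test, so each difference describes these arrays and not the conditions. A gauge of technical spread came from genes with exactly 2 probe sets, both above the limit on both arrays compared. Per probe set, the standard deviation of the log2 difference within such a gene was 0.48 for intestinal minus control. It was 0.34 for Dll1 minus control and 0.24 for TGF-beta1 minus control. That gauge was 0.34 for Dll1 minus TGF-beta1 and 0.39 for intestinal minus Dll1. It covers no spread between cultures or mice and no gene below background on either array.

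The labelled cell type was checked on its defining genes. Kit read 11.75 in intestinal mast cells, 12.54 with Dll1, 12.22 with TGF-beta1 and 12.65 in control BMMCs. Fcer1a, a chain of the IgE receptor, read 11.66, 12.39, 12.40 and 12.41 in the same order, so both were far above background on all 4 arrays. These genes encode the proteins used for the sort, and c-Kit also for the Dll1 selection. Of 11 mast cell markers measured, 11 were above background on the intestinal, Dll1 and TGF-beta1 arrays and 10 on the control array. In intestinal against control cells the mucosal protease genes Mcpt1 and Mcpt2 were called higher and the protease genes Cma1 and Tpsb2 lower, with a median difference of -0.63 over the list. Genes of other cells stood beside them. Of 16 markers of T and innate lymphoid cells, 14 were above background on the intestinal array, against 6 on the Dll1 array, 3 on the TGF-beta1 array and 7 on the control array. The eosinophil granule genes Prg2 and Epx were high on the Dll1 array alone, at 11.45 and 8.83. In these bulk samples, fewer cells of a type and less RNA per cell cannot be told apart.

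The 35 cytokine genes differed in whether they were above background at all. Of them, 15 were above background on all 4 arrays: Ccl2, Ccl3, Ccl4, Ccl5, Ccl6, Ccl7, Ccl9, Il1b, Il4, Il13, Il6, Lif, Osm, Tnf and Csf1. Another 9 were above it on 1 to 3 arrays (Ccl1, Ccl17, Cxcl1, Cxcl2, Il1a, Il5, Il16, Tnfsf4 and Tslp). The remaining 11 were below it throughout, with levels between 4.24 and 5.11. They were Ccl22, Il18, Il33, Il2, Il9, Il10, Il12a, Ifng, Il3, Csf2 and Csf3. The cytokine genes above background numbered 21 in intestinal mast cells, 20 with Dll1, 17 with TGF-beta1 and 19 in control BMMCs. As shares of the 35 these were 60.0%, 57.1%, 48.6% and 54.3%, against 54.7%, 55.6%, 50.7% and 52.6% of all genes. The listed cytokines were therefore above background about as often as genes in general.

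**Figure D1:**
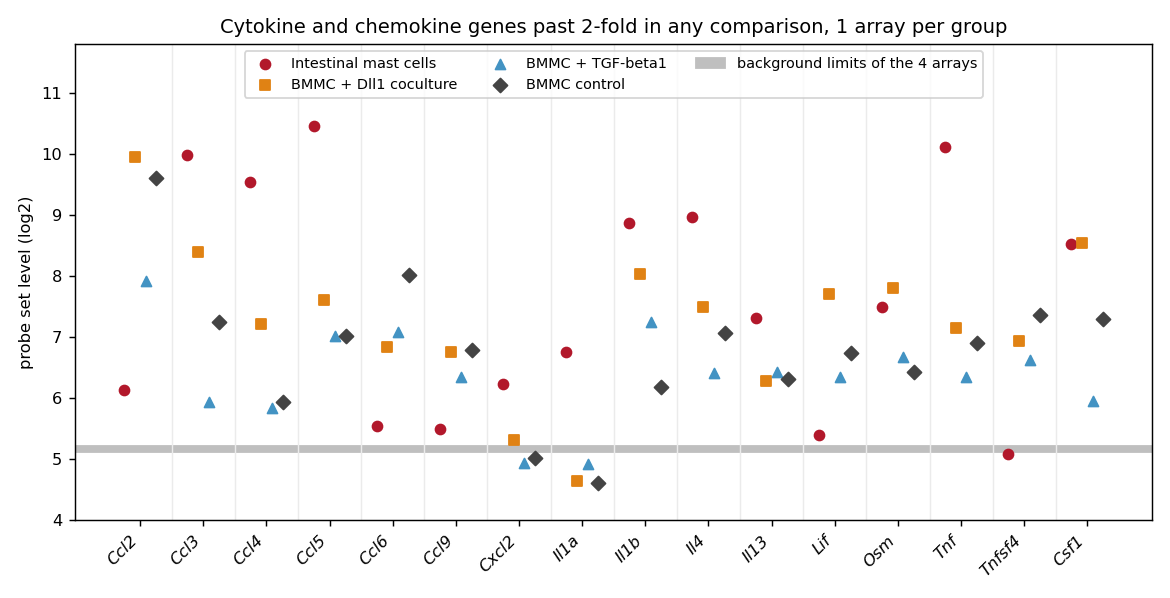
Log2 probe set level (vertical axis) of the 16 cytokine and chemokine genes past 2-fold in at least 1 of 5 comparisons, with 1 point for each of the 4 arrays and a grey band over the 4 background limits. Ccl5, Tnf, Ccl3 and Ccl4 are highest in intestinal mast cells (10.46, 10.12, 9.98 and 9.54), whereas Ccl2 is lowest there (6.13).

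Promoter sequences give the context in which these genes are transcribed, and 7 are printed because the results below turn on these genes. Tnf, Ccl3 and Il1b were among the genes much higher in intestinal mast cells, Csf1 differed between the treatments in opposite directions, Cxcl2 was above background on the intestinal and Dll1 arrays alone, Il6 was nearly level, and Ccl9 was lower in intestinal cells. Each window runs from 250 bases before to 50 bases after the start of the gene in RefSeq (GRCm38.p6) and is written 5′ to 3′ on the strand of the gene. Capitals mark matches to the NF-kB motif (GGG, any 3 bases, then TTCC), the AP-1 motif TGANTCA, the TATA motif TATAAA, the GATA motif AGATAA or the cAMP response element TGACGTCA, searched on both strands. Overlapping matches run together as 1 stretch of capitals.
Tnf, chr17:35201958-35202257, minus strand: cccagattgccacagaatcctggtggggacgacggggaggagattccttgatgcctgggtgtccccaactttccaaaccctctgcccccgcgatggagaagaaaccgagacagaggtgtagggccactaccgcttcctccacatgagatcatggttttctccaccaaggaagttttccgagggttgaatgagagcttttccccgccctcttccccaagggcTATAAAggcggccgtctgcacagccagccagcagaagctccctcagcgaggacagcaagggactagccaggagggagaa
Ccl3, chr11:83649329-83649628, minus strand: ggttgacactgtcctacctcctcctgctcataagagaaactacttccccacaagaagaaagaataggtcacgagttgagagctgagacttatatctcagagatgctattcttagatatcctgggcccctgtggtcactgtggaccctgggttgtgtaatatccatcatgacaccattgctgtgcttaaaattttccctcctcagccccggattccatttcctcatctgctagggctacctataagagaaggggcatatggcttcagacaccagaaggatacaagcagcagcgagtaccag
Il1b, chr2:129371090-129371389, minus strand: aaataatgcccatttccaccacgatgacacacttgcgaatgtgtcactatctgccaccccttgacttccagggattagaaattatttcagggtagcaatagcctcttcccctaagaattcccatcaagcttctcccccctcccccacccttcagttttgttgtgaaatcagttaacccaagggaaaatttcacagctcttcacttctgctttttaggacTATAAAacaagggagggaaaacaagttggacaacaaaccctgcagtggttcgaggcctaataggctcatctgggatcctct
Csf1, chr3:107760420-107760719, minus strand: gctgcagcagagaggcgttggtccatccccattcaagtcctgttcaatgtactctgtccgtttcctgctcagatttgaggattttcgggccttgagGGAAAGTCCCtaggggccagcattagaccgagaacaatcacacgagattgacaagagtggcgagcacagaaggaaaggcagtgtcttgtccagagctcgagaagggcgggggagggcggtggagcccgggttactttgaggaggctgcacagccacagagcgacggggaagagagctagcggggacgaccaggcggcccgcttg
Cxcl2, chr5:90903649-90903948, plus strand: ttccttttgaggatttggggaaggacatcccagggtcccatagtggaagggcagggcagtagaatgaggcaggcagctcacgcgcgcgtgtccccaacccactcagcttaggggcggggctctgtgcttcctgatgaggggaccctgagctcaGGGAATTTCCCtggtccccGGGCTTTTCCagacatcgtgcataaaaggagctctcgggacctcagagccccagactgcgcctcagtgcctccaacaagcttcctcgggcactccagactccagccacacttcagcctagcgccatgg
Il6, chr5:30012864-30013163, plus strand: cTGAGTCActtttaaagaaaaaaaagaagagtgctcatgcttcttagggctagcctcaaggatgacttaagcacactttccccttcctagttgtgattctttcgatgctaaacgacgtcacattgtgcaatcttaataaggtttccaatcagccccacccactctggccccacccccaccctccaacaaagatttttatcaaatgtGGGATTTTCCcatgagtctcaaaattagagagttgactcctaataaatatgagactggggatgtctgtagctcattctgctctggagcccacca
Ccl9, chr11:83578587-83578886, minus strand: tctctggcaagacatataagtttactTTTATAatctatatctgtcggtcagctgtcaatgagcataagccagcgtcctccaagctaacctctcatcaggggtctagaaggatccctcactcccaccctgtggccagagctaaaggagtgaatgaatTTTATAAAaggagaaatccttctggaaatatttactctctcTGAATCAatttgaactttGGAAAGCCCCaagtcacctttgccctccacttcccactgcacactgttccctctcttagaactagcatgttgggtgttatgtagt

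A promoter window was at hand for 27 of the 36 genes. Ccl2, Ccl4, Ccl5, Ccl7, Tnfsf4, Osm, Il10, Csf3 and Tslp had none and were not searched. The NF-kB letters stood in the windows of 8 of the 27 genes (Ccl1, Ccl9, Csf1, Cxcl1, Cxcl2, Il16, Il6 and Il9). These were 8 of 32 windows, against 5.56% of the 32851 windows of all genes. The Cxcl2 window held 3 matches, of which GGGAATTTCC and GGAATTTCCC overlap and GGGCTTTTCC stands apart. Il6 held GGGATTTTCC, Csf1 GGAAAGTCCC and Ccl9 GGAAAGCCCC. AP-1 letters were found in 6 of the 32 windows (Ccl9, Il16, Il1a, Il6, Il9 and Lif), against 7.81% of all windows. TATA letters were found in 11 of the 32, from 10 genes, among them Tnf and Il1b, against 13.6%. GATA letters were found in 4 of the 32 (Ccl17, Csf2, Il13 and Il3), against 11.2%. The cAMP response element was found in 1 of the 32 (Areg), against 1.79%. The Ccl3 window held none of the 5 motifs. A match is a description of letters in this window, and the windows that held the NF-kB letters belonged to genes called higher in intestinal cells (Csf1 and Cxcl2), lower (Ccl9) and not called (Il6, Il16, Cxcl1, Ccl1 and Il9).

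Tissue mast cells were set against cultured ones by comparing the intestinal and control arrays. Ccl4, Ccl5, Tnf, Ccl3 and Il1b were the genes of the list with the largest excess in intestinal cells, while Ccl2, Ccl6, Tnfsf4, Lif and Ccl9 were lower. In all, 10 of the 35 genes were called higher, or 28.6%, against 2.57% of all 22180 genes (percentage called), and 5 were called lower, or 14.3%, against 3.86%. Among genes above background on at least 1 of these arrays, 4.47% of all genes were called higher and 6.74% lower. The median difference of the 35 genes was 0.16 on the log2 scale and that of all genes was 0.004, and 20 of the 35 were not called.

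Among the CC chemokines, Ccl3, Ccl4 and Ccl5 were higher in intestinal cells. Ccl4 (MIP-1beta), which draws in monocytes and T cells, read 9.54 in intestinal mast cells, 7.21 with Dll1, 5.84 with TGF-beta1 and 5.93 in control BMMCs. It was 12.2-fold higher in intestinal than in control cells, the 48th highest difference of the 22180 genes. Ccl5 (RANTES), which draws in T cells and eosinophils, read 10.46, 7.60, 7.02 and 7.01 in the same order and was 10.9-fold higher in intestinal than in control cells. Ccl5 was high on the intestinal array alone, and its TGF-beta1 and control levels were nearly equal. Ccl3 (MIP-1alpha) read 9.98, 8.40, 5.93 and 7.24, a 6.68-fold excess over control in intestinal cells. Its levels were thus spread over the 4 arrays, with TGF-beta1 lowest and intestinal cells highest.

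Of the other CC chemokines, Ccl2, Ccl6 and Ccl9 were called lower in intestinal cells and Ccl1, Ccl7, Ccl17 and Ccl22 were not called. Ccl2 (MCP-1), the main attractant of CCR2-bearing monocytes, read 6.13 in intestinal mast cells, 9.95 with Dll1, 7.92 with TGF-beta1 and 9.60 in control BMMCs. It was 11.1-fold lower in intestinal than in control cells, the 39th lowest difference of all genes. Ccl2 was therefore the cytokine gene with the largest deficit in intestinal cells. Ccl6 and Ccl9 are mouse chemokines that act on CCR1. Ccl6 read 5.55 in intestinal cells, 6.83 with Dll1, 7.09 with TGF-beta1 and 8.02 in control BMMCs. Ccl9 read 5.50, 6.76, 6.34 and 6.79 in the same order. They were 5.56-fold and 2.45-fold lower in intestinal than in control cells. With a limit at the 99th percentile the Ccl9 difference was -0.87 on the log2 scale and the call was lost. The intestinal values were not far above the limit, as were those of Ccl7 on all 4 arrays (5.18 to 5.45). Ccl17, a ligand of CCR4, was above background in intestinal cells alone, at 6.10 against 4.81 in control BMMCs. Its bound of at least 1.97-fold fell just short of the 2-fold rule. Ccl1 stayed between 5.07 and 5.43 and Ccl22 between 4.70 and 5.06.

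The CXC chemokines of the list both attract neutrophils through CXCR2, and both were near background on most arrays. Cxcl2 (MIP-2) read 6.23 in intestinal mast cells, 5.31 with Dll1, 4.93 with TGF-beta1 and 5.02 in control BMMCs. With the limit used here it was at least 2.17-fold higher in intestinal than in control cells. With a limit at the 99th percentile the difference was 0.29 on the log2 scale and the call was lost. Cxcl1, which lies beside it in the genome, stayed between 5.02 and 5.17 on the 4 arrays.

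In the IL-1 family, Il1b and Il1a were higher in intestinal cells and the other members measured were not above background. Il1b, which encodes a precursor that caspase-1 cleaves, read 8.87 in intestinal mast cells, 8.03 with Dll1, 7.24 with TGF-beta1 and 6.18 in control BMMCs. The control array was the lowest and all 3 others were at least 2-fold above it, and the intestinal excess was 6.46-fold. Il1a was above background on the intestinal array alone, at 6.76. It read 4.65 with Dll1, 4.92 with TGF-beta1 and 4.61 in control BMMCs. The intestinal excess over control was at least 3.12-fold with the limit used here. With a limit at the 99th percentile it was 0.81 on the log2 scale and the call was lost. Il18 and Il33, an alarmin that acts on mast cells through the receptor ST2, were below background on all 4 arrays. The gene of the IL-1 receptor antagonist, Il1rn, read 7.14 in intestinal cells, 5.65 with Dll1, 5.30 with TGF-beta1 and 5.55 in control BMMCs, and was 3.01-fold higher in intestinal than in control cells.

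Among the type 2 interleukins, Il4 was higher in intestinal cells. Il4, which drives IgE class switching, read 8.97 in intestinal mast cells, 7.49 with Dll1, 6.41 with TGF-beta1 and 7.06 in control BMMCs, which is 3.77-fold higher than control. Il13, which acts on epithelium and goblet cells, read 7.31, 6.28, 6.42 and 6.32 in the same order. Its excess over control was 1.99-fold, just short of a call. Il5, the eosinophil growth factor, stayed between 4.78 and 5.14, close to the limits, and Il9 and Il2 were below them throughout.

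Tnf and Tnfsf4, both of the TNF superfamily, went in opposite directions. Tnf read 10.12 in intestinal mast cells, 7.15 with Dll1, 6.34 with TGF-beta1 and 6.90 in control BMMCs, 9.32-fold higher in intestinal than in control cells. Tnfsf4 (OX40 ligand), which costimulates T cells, was below background in intestinal cells at 5.09 and read 6.94 with Dll1, 6.62 with TGF-beta1 and 7.36 in control BMMCs. It was at least 4.74-fold lower in intestinal than in control cells, and the log2 difference was -1.43 with a limit at the 99th percentile.

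The cytokines related to IL-6, which signal through the shared receptor chain gp130, had no common direction. Il6 read 8.51 in intestinal mast cells, 8.71 with Dll1, 8.69 with TGF-beta1 and 8.18 in control BMMCs. Its whole range over the 4 arrays was 0.53, and it was called in none of the comparisons. Lif read 5.39, 7.71, 6.35 and 6.74 and was 2.55-fold lower in intestinal than in control cells, a call lost with a limit at the 99th percentile (-0.81 on the log2 scale). Osm (oncostatin M), its neighbour on chromosome 11, read 7.50, 7.80, 6.67 and 6.42 and was 2.11-fold higher in intestinal than in control cells. Osm was thus high on the intestinal and Dll1 arrays, and Lif on the Dll1 array.

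Of the colony-stimulating factors, Csf1 was above background on all 4 arrays and the others were above it on none. Csf1, the growth factor of macrophages, read 8.53 in intestinal mast cells, 8.54 with Dll1, 5.95 with TGF-beta1 and 7.30 in control BMMCs, and was 2.34-fold higher in intestinal than in control cells. The intestinal and Dll1 levels lay 0.01 apart, and the TGF-beta1 level was the lowest. Il3 and Csf2 (GM-CSF), which support mast cells and granulocytes, were below background on every array, and so was Csf3. The other Csf2 probe set read between 4.44 and 4.66. Ifng, Il10 and Il12a were below background as well, Il16 stayed between 5.10 and 5.85, and Tslp between 4.75 and 5.21.

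**Figure D2:**
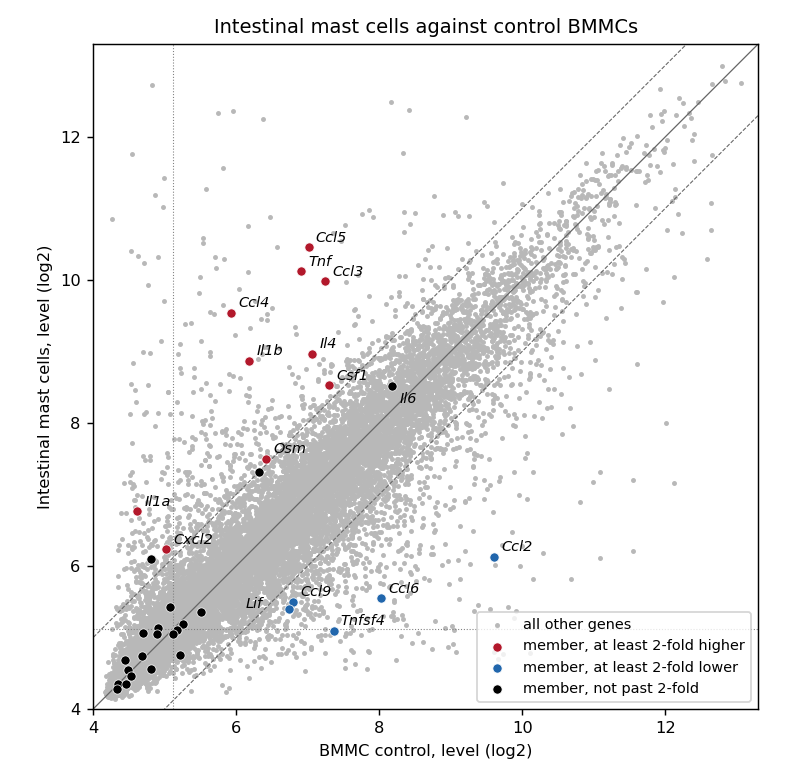
Log2 level in intestinal mast cells (vertical) against control BMMCs (horizontal) for every gene, with 1 array for each group, where solid and dashed lines mark equal levels and 2-fold, and dotted lines mark the background limits. The 10 cytokine genes in red lie above the upper dashed line, led by Ccl4 and Ccl5, and the 5 in blue lie below the lower one, with Ccl2 the farthest.

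Markers of handling and of other cells moved with the intestinal array, and their part in the differences above was not tested. Between intestinal and control cells, 2.57% of all genes were called higher and 3.86% lower. Of 27 immediate early and heat shock genes, which respond to handling or stimulation within minutes, 23 were called higher in intestinal than in control cells and none lower, with a median difference of 3.25. Their summed linear level was 44020 on the intestinal array, 15400 on the Dll1 array, 5180 on the TGF-beta1 array and 4741 on the control array. T and innate lymphoid cells also make Ccl3, Ccl4 and Ccl5. Of 16 such markers, 7 were called higher in intestinal than in control cells, and the summed levels were 6585, 5579, 2758 and 3836 in the same order. Cd3g read 8.84 in intestinal cells against 4.55 in control BMMCs, and Gzma read 10.33 against 4.62, whereas Cd2 was below background on all 4 arrays.

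Macrophages and dendritic cells are sources of Tnf, Il1b and Ccl3. Of 17 markers, 13 were above background on the intestinal array, 9 with Dll1, 10 with TGF-beta1 and 7 in control BMMCs, and 4 were called higher in intestinal than in control cells (Itgax, C1qb, C1qa and Csf1r), and the summed levels were 4617 on the intestinal array, 1450 with Dll1, 1242 with TGF-beta1 and 1280 in control BMMCs. Itgax alone read 11.19 in intestinal cells against 4.86 in control BMMCs, while C1qc, Mrc1, Cd163 and Zbtb46 were below background on every array. Of 20 intestinal epithelium markers, 12 were above background on the intestinal array, against 6, 4 and 5 on the others, and 5 were called higher, with summed levels of 2142, 719.5, 773.7 and 621.2 in the order used above, and the defining genes Epcam and Vil1 were below background throughout. Of 8 B and plasma cell markers 2 were higher, Ighm and Jchain, with summed levels of 2085, 391.9, 343.7 and 278.0, and Ms4a1 was below background throughout. Basophils are a source of Il4, and of their 6 markers 5 were above background on the intestinal, Dll1 and TGF-beta1 arrays and 6 on the control array. The basophil protease gene Mcpt8 read 10.94, 10.89, 7.68 and 8.50 in the same order, and Cd200r3 read 5.13, 8.58, 8.80 and 8.91. In intestinal against control cells 2 of the 6 were higher and 2 lower. Of 8 eosinophil markers 2 were higher, of 14 neutrophil markers 1 was lower, and of 17 stromal or feeder markers 2 were higher. Among genes above background on at least 1 of these arrays, 4.47% were called higher and 6.74% lower.

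Dll1-cocultured BMMCs were set against those kept in normal medium. The series has no array of BMMCs cocultured with CHO cells that lack Dll1. Ligand, feeder cells and bead selection therefore cannot be told apart here. All 3 comparisons with control share the 1 control array. Il1b, Osm, Ccl4, Csf1 and Ccl3 were higher with Dll1, and Ccl6 was lower. These 5 of 35 genes make 14.3%, against 0.942% of all genes called higher, and the 1 lower gene makes 2.86%, against 1.02%. Over all genes the numbers were 209 higher and 227 lower, or 175 and 316 with array medians subtracted. The median difference was 0.08 for the cytokine genes and 0.02 for all genes.

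Il1b was 3.61-fold higher with Dll1 than in control BMMCs, the 70th highest difference of all genes. Osm was 2.60-fold, Ccl4 2.42-fold, Csf1 2.36-fold and Ccl3 2.24-fold higher. Lif, at 1.96-fold higher, was not called. Ccl6 was 2.28-fold lower, while its neighbour Ccl9 read 6.76 with Dll1 and 6.79 in control BMMCs. Ccl2 and Tnf, which parted intestinal from control cells, differed here by 0.35 and 0.25 on the log2 scale and were not called. For the list counts that follow, the shares of all genes called were 0.942% higher and 1.02% lower. The immediate early and heat shock list had 13 of 27 genes called higher with Dll1, among them Egr1 (28.6-fold) and Dusp1 (31.4-fold). Of 8 eosinophil markers 5 were higher, with summed levels of 4356 with Dll1 and 278.9 in control BMMCs, and of 14 neutrophil markers 6 were higher and 1 was lower, with summed levels of 2104 and 522.1. In the list of 16 T and innate lymphoid genes 3 were higher (Gzma, Nkg7 and Il7r), with summed levels of 5579 with Dll1 and 3836 in control BMMCs. Of 6 basophil markers 2 were higher and 1 lower, of 8 B and plasma cell markers 1 was higher, of 11 mast cell markers 2 were higher, and the macrophage and epithelium lists had no called gene. In the stromal and feeder list, 4 of 17 were higher (Dll1, Actn1, Anxa2 and Thbs1). The part of these cells, of the feeder coculture and of the bead selection in the cytokine values was not tested.

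The TGF-beta1 and control arrays addressed the response of BMMCs to this cytokine, and the labels do not say whether they came from the same culture. Ccl2, Csf1 and Ccl3 were lower with TGF-beta1 and Il1b was higher. The 3 lower genes make 8.57% of the 35, against 0.482% of all genes, and the 1 higher gene makes 2.86%, against 0.275%. Ccl2 was 3.20-fold lower, the 25th lowest difference of all genes. Csf1 was 2.54-fold and Ccl3 2.48-fold lower, at ranks 44 and 50 from the lowest. Il1b was 2.09-fold higher, and Ccl6, at 1.90-fold lower, was not called. The median difference was -0.08 for the cytokine genes and 0.01 for all genes. One gene of the immediate early and heat shock list was called on this array, Gadd45b, which was 2.54-fold higher. Among the marker lists, the mast cell genes Mcpt1 and Mcpt2 and the epithelial gene Cdh1 were higher and the neutrophil gene Ly6g was lower, and the T cell, macrophage, B cell, eosinophil, basophil and stromal lists had no called gene.

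**Figure D3:**
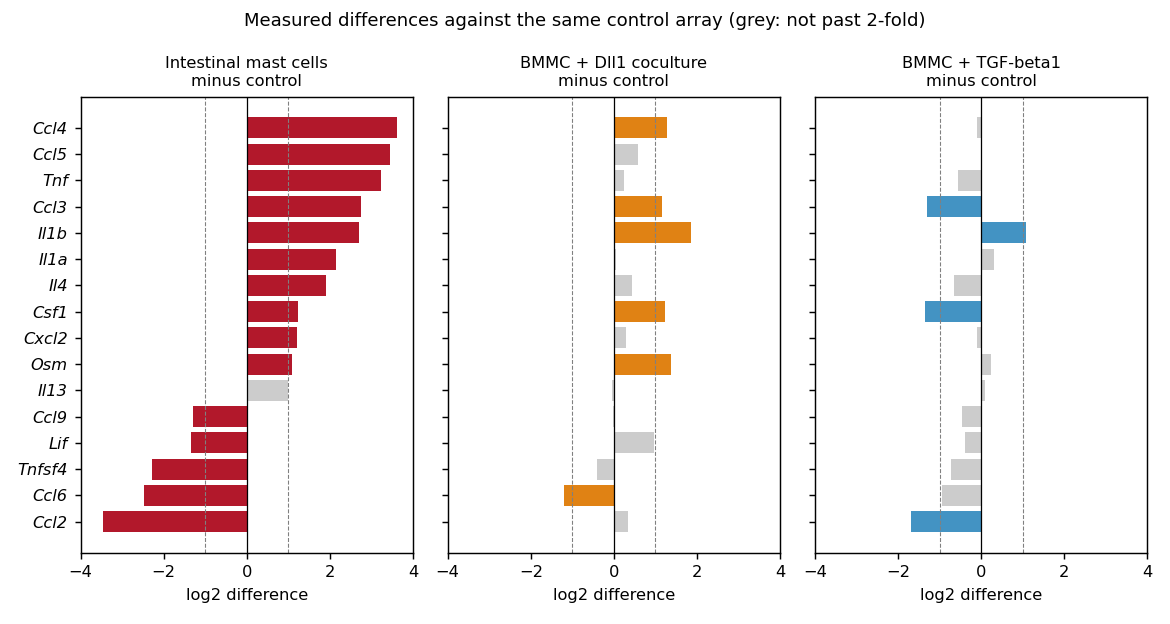
Measured log2 difference from the control array (horizontal, 0 in the middle, dashed lines at 2-fold) for the 16 genes, in 3 panels that share that control array. Csf1 and Ccl3 point to higher values in intestinal mast cells and with Dll1 but to lower values with TGF-beta1, and Il1b is higher in all 3 panels (2.69, 1.85 and 1.07).

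The Dll1 and TGF-beta1 cultures were also set against each other. With Dll1, 7 of the 35 genes were called higher, or 20.0%, against 1.25% of all genes, and none was called lower, against 1.08%. Csf1 was 6.00-fold higher with Dll1 than with TGF-beta1, Ccl3 5.55-fold and Ccl2 4.08-fold. Ccl4 (2.58-fold), Lif (2.57-fold), Osm (2.20-fold) and Il4 (2.11-fold) followed. Csf1 and Ccl3 were at ranks 38 and 44 from the highest of all genes. For Ccl2 the larger departure from control was on the TGF-beta1 array, whereas Csf1 and Ccl3 lay above control with Dll1 and below it with TGF-beta1. The largest negative difference was -0.32. Of the 27 immediate early and heat shock genes 12 were higher with Dll1 than with TGF-beta1, as were 5 of 8 eosinophil, 6 of 14 neutrophil, 4 of 16 T and innate lymphoid cell, 2 of 6 basophil, 3 of 17 stromal or feeder and 1 of 11 mast cell markers. Of these lists none had a lower gene, and of the 20 epithelium markers 1 was lower. Their part in the cytokine differences was not tested.

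Between intestinal mast cells and Dll1-cocultured BMMCs, the separation of the CC chemokines seen against control was present again, with the intestinal array shared by both comparisons. In intestinal cells 7 genes were called higher, or 20.0%, against 2.09% of all genes, and 5 lower, or 14.3%, against 2.43%. Tnf was 7.82-fold, Ccl5 7.25-fold, Ccl4 5.03-fold and Ccl3 2.98-fold higher than with Dll1. Il1a (at least 3.09-fold, or 0.76 on the log2 scale and not called with a limit at the 99th percentile), Il4 (2.80-fold) and Il13 (2.04-fold) were higher too. Ccl2 was 14.1-fold, Lif 4.99-fold, Ccl6 2.44-fold and Ccl9 2.40-fold lower, and Tnfsf4 was at least 3.56-fold lower. The Ccl6 and Ccl9 calls were lost with that stricter limit, and the Tnfsf4 difference was then -1.02. Osm and Csf1, higher than control on both arrays, were not called between them. Of the immediate early and heat shock list 15 of 27 were higher in intestinal than in Dll1 cells, and of the T and innate lymphoid cell list 7 of 16. The same held for 4 of 17 macrophage and dendritic cell, 4 of 20 epithelium and 2 of 8 B and plasma cell markers, with none lower. Lower in intestinal than in Dll1 cells were 4 of 8 eosinophil markers (1 higher), 6 of 14 neutrophil, 2 of 17 stromal or feeder (1 higher), 1 of 6 basophil and 2 of 11 mast cell markers, the last with a median difference of -0.44. Their part in the cytokine differences was not tested.

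The genes are unevenly spread over the genome, with 16 of the 36 on chromosome 11 in RefSeq. A run of 5 neighbouring chemokine genes there, in the order Ccl5, Ccl9, Ccl6, Ccl3 and Ccl4, was split in intestinal cells. Ccl5, Ccl3 and Ccl4 were higher than in control BMMCs, by 3.45, 2.74 and 3.61 on the log2 scale. Ccl9 and Ccl6, which lie between Ccl5 and Ccl3, were lower, with differences of -1.29 and -2.48. The annotated spans of Ccl3 and Ccl4 overlap, and close relatives such as Ccl6 and Ccl9 can share probe sequence, so their separate levels are uncertain.

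In a second run, from Ccl2 to Ccl1, Ccl2 read 6.13 in intestinal cells and between 7.92 and 9.95 on the other arrays. Ccl7, Ccl11, Ccl12, Ccl8 and Ccl1 read between 4.29 and 5.56 on all 4 arrays. The type 2 cytokine run begins with Il4 and Il13, followed by the DNA repair gene Rad50 and then Il5. Intestinal minus control differences were 1.91 for Il4 and 0.99 for Il13 on the log2 scale. For Il5, Csf2 and Il3, near or below background, they were 0.23, -0.25 and -0.07. Rad50, between them, read 6.85 in intestinal cells, 6.83 with Dll1, 7.73 with TGF-beta1 and 7.81 in control BMMCs, so it did not follow Il4 and Il13. Irf1, a transcription factor gene next to Il5, read 7.00 in intestinal cells against 5.96 in control BMMCs.

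**Figure D4:**
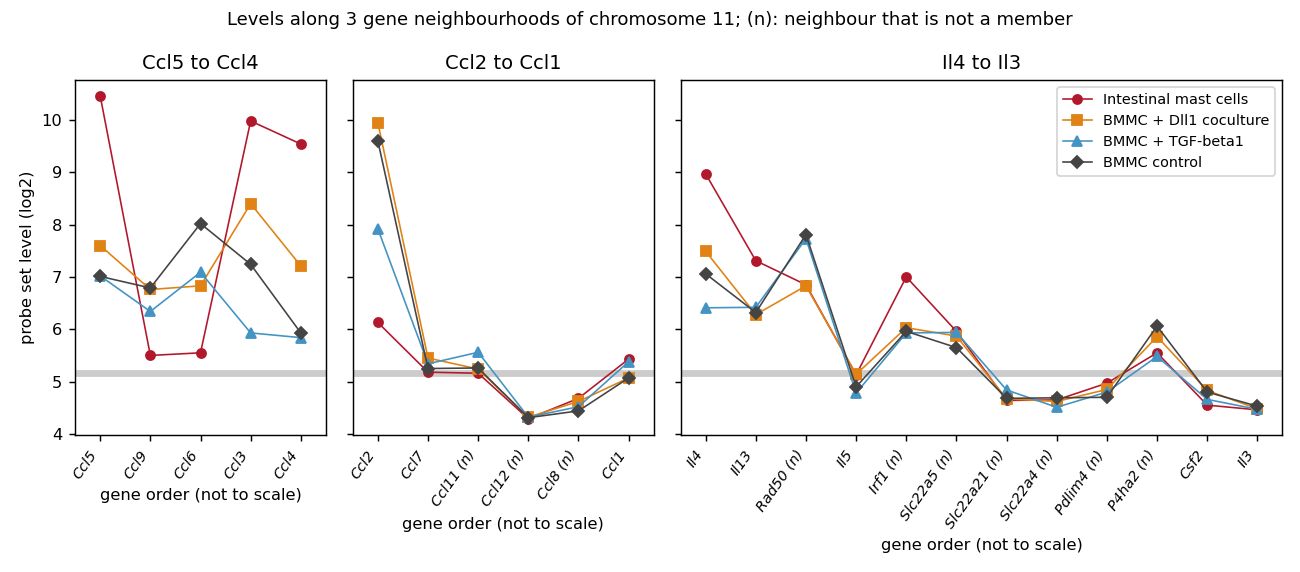
Log2 level (vertical) of protein-coding genes in their order along 3 neighbourhoods of chromosome 11 (horizontal, not to scale), with a line for each of the 4 arrays and a grey band over the background limits. Ccl9 and Ccl6 are lower in intestinal mast cells than in control BMMCs (5.50 against 6.79, and 5.55 against 8.02). Their neighbours Ccl5 and Ccl3 are higher (10.46 against 7.01, and 9.98 against 7.24).

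Genes that control cytokine transcription and transcript decay were read from lists chosen for their function. Of 19 NF-kB pathway genes, 5 were called higher and none lower in intestinal than in control cells, against 2.57% and 3.86% of all genes. The median difference was 0.47 for this list and 0.004 for all genes. Nfkbia, the inhibitor that NF-kB itself induces, read 10.66 in intestinal mast cells, 8.09 with Dll1, 7.35 with TGF-beta1 and 7.36 in control BMMCs. Tnfaip3 (A20), another feedback inhibitor, read 9.87, 7.37, 5.49 and 6.03 and was 14.3-fold higher in intestinal than in control cells. Nfkbiz read 9.65, 7.40, 5.88 and 5.82, a 14.2-fold excess, and the subunit Rel was 3.46-fold and Traf1 2.54-fold higher. These 5 genes were highest on the intestinal array, as were Tnf, Ccl3 and Ccl4, and the other genes of the list were not called. A link between them and the cytokine genes was not tested. With Dll1, 2 of the 19 were higher than in control (Nfkbiz and Tnfaip3), and with TGF-beta1, Bcl3 was (by 1.01 on the log2 scale). The shares of all genes called higher were 0.942% with Dll1 and 0.275% with TGF-beta1.

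Of 31 transcription factor genes, 10 were higher and 1 lower in intestinal than in control cells, against 2.57% and 3.86% of all genes. The higher ones were the AP-1 genes Fos, Fosb, Fosl2, Jun, Junb and Jund, together with Egr1, Egr2, Egr3 and Irf1, and 7 of them also stand in the immediate early list. Gata1, a mast cell lineage factor, was 3.07-fold lower. With Dll1, 7 were higher than in control, against 0.942% of all genes, and with TGF-beta1 none was called. Jun read 12.49 in intestinal cells, 9.36 with Dll1, 8.61 with TGF-beta1 and 8.17 in control BMMCs.

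Of 12 genes that destabilise or bind cytokine transcripts, 3 were higher and none lower in intestinal than in control cells. The shares of all genes were 2.57% and 3.86%. Zfp36 read 10.51 in intestinal mast cells, 7.92 with Dll1, 5.69 with TGF-beta1 and 5.53 in control BMMCs, a 31.7-fold excess in intestinal cells. Zfp36l1 was 4.06-fold and Zc3h12a, which encodes the ribonuclease regnase-1, 2.74-fold higher. Zc3h12c was 2.09-fold lower with TGF-beta1 than in control BMMCs. Zfp36 is itself an immediate early gene and is counted in that list as well. Of 15 genes for MAP kinase phosphatases and other feedback inhibitors, 8 were higher and 3 lower in intestinal than in control cells. The shares of all genes were again 2.57% and 3.86%. Dusp1 read 12.25 in intestinal cells, 11.35 with Dll1, 6.26 with TGF-beta1 and 6.38 in control BMMCs, and Dusp2 read 9.40, 5.43, 5.42 and 5.37. Dusp1, too, is counted in the immediate early list. The 3 lower genes, Socs1, Socs2 and Cish, encode inhibitors of cytokine receptor signalling. Socs1 read 6.94, 9.61, 9.12 and 9.25 and was 4.95-fold lower in intestinal than in control cells.

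**Figure D5:**
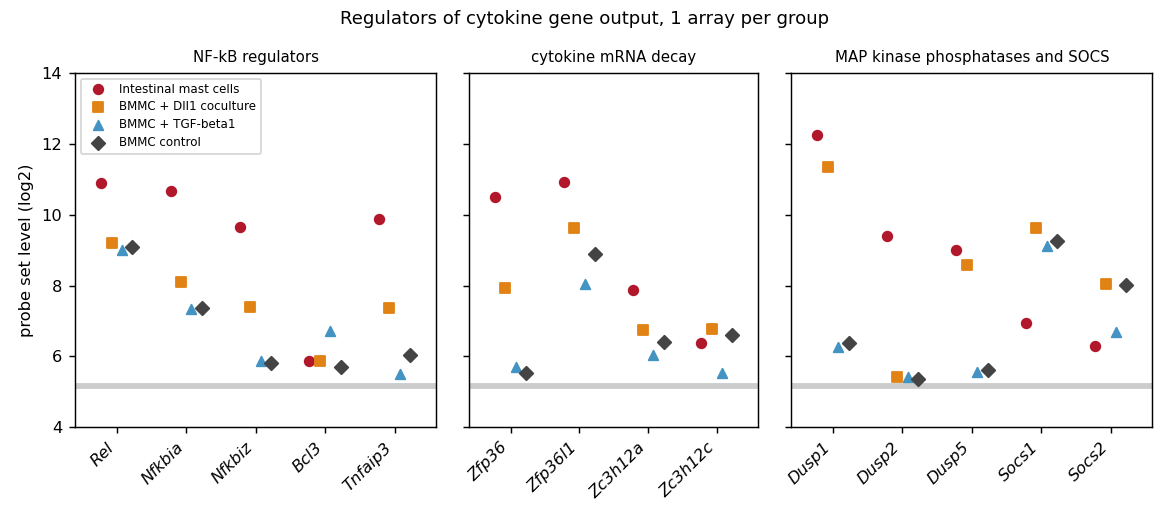
Log2 level (vertical) of genes that the naming rule took from 3 lists of cytokine regulators, with 1 point for each array and a grey band over the background limits. Nfkbia, Tnfaip3 and Zfp36 are highest in intestinal mast cells (10.66, 9.87 and 10.51), and Socs1 is lowest there (6.94).

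Receptors for the same ligands were read as well. Of 40 measured receptor genes, 4 were higher and 7 lower in intestinal than in control cells, against 2.57% and 3.86% of all genes. The lower ones included receptors for growth and type 2 cytokines. Csf2rb, the beta chain shared by the IL-3, IL-5 and GM-CSF receptors, read 9.42 in intestinal mast cells, 10.12 with Dll1, 10.43 with TGF-beta1 and 10.57 in control BMMCs. Its mouse relative Csf2rb2, which serves IL-3, was 3.00-fold lower, Il4ra 2.31-fold and Il10ra 4.88-fold lower in intestinal than in control cells. Il18r1 was 5.43-fold, Il18rap at least 2.51-fold and Il1rap 2.01-fold lower. Il2rb, the IL-2 and IL-15 receptor beta chain, was at least 4.17-fold higher, Tnfrsf1b (TNF receptor 2) 3.89-fold, the gp130 gene Il6st 2.84-fold and Csf1r at least 2.70-fold higher. Il2rb is also carried by lymphoid cells and Csf1r by macrophages, whose markers are given above.

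With Dll1, 3 receptor genes were higher than in control BMMCs and 1 was lower, against 0.942% and 1.02% of all genes. Il18rap, Il2ra and Il7r were higher, by 1.21, 1.10 and 1.05 on the log2 scale, and Il18r1 was lower, with a difference of -1.51. With TGF-beta1 none was called. Ccr1 and Ccr2, receptors for several of the CC chemokines, read 5.80 and 5.40 in intestinal cells, 6.70 and 6.84 with Dll1, 4.96 and 6.69 with TGF-beta1, and 5.77 and 6.22 in control BMMCs. Neither was called against control on any array. Of 12 genes for processing and release, Nlrp3, the sensor of the inflammasome that activates caspase-1, was 2.77-fold lower in intestinal than in control cells, and Furin (2.51-fold) and Rhbdf2 (2.19-fold), which serves the release of TNF from the cell surface, were lower as well.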

How the data were processed

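The series holds 4 mouse mast cell samples on Affymetrix whole-transcript arrays, 1 for each group. Per the labels' protocols, a low-input WT Pico kit was used on 2 ng of RNA. The authors deposited log2 values for 33793 probe sets, which lay between 4.13 and 13.14. Which software summarised and normalized the probe sets, and on which build, is not given in the sources used here. No normalization was added, since sorted values differed between arrays by 0.25 at most.

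A single symbol was annotated for 23521 probe sets, several for 1814 and none for 8458. The probe set with the highest mean stood for a gene that had more than 1. Differences, background limits and calls were computed with Python 3.11.15, pandas 2.3.3 and numpy 2.4.6. Arrays carry no read depth, and their number limits the precision. Simulated arrays with known changes were used to check the calls.

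The genes and lists were chosen with earlier results of these data known. The naming rule gives the level on all 4 arrays of each cytokine gene called in any comparison. From the other lists it takes up to 4 called genes with the largest differences for intestinal minus control. It takes up to 2 for each other comparison. The marker and handling lists are given mainly by counts, with only some of their genes named. Other genes, including list members below background, were named after their values were seen. Gene order, promoter windows and their coordinates are from RefSeq (GRCm38.p6). Alternatives were array medians subtracted, quantile normalization, other background limits or none, averaging over probe sets, 1.5-fold and 3-fold rules, and an offset of 16 subtracted, which an earlier look at these data had prompted.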

Additional observations from a re-analysis of the deposited data

How the results depend on the processing

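There were 44 calls of cytokine genes over the 5 comparisons, and all 44 were kept with array medians subtracted, quantile normalization, the 90th percentile or no background limit, averaging over probe sets, the 1.5-fold rule and the offset of 16 subtracted. The 99th percentile as limit lost 7 calls: Ccl9, Cxcl2, Il1a and Lif for intestinal minus control, and Ccl6, Ccl9 and Il1a for intestinal minus Dll1. It left 3 lower genes in place of 5 in each of these comparisons. The 3-fold rule, which by its construction drops the smaller differences, lost 22 calls. It left 3 lower genes for intestinal minus control, 4 higher and 3 lower for intestinal minus Dll1, 3 higher for Dll1 minus TGF-beta1, 1 higher and 0 lower for Dll1 minus control, and 0 higher and 1 lower for TGF-beta1 minus control. With the 1.5-fold rule 6 genes were lower with TGF-beta1 than in control BMMCs. Over all genes, the offset raised the numbers called higher and lower with Dll1 against control to 360 and 393 (209 and 227 without it), with TGF-beta1 against control to 110 and 184 (61 and 107), and with Dll1 against TGF-beta1 to 431 and 403 (277 and 240). No call changed direction. No paired analysis was possible because each group has 1 array, and no array could be left out. The floor just above 4 compresses differences of dim genes such as Cxcl2 and Il1a.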

Other observations

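Chemokines outside the list were mostly near or below background. Of 22 measured, 2 were called in intestinal mast cells against control BMMCs, both higher, against 2.57% of all genes called higher. Xcl1, a chemokine of lymphoid cells that acts on XCR1-bearing dendritic cells, read 7.49 in intestinal mast cells, 5.11 with Dll1, 4.98 with TGF-beta1 and 4.79 in control BMMCs. Cxcl16, a membrane-bound chemokine, read 7.63, 5.60, 6.33 and 6.34 in the same order. Among 36 other interleukins, interferons and TNF family members, Il1rn was higher in intestinal than in control cells, and Il15 (2.59-fold) and Tnfsf14 (2.38-fold) were lower. These 1 and 2 genes of 36 lie near the shares of all genes called, 2.57% higher and 3.86% lower. Ltb, the lymphotoxin beta gene, was 2.89-fold higher with Dll1 than in control BMMCs.

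Of 20 growth factor genes measured, none was called higher and 2 were called lower in intestinal than in control cells, against 2.57% higher and 3.86% lower of all genes. The median difference was 0.02. Vegfc, the lymphatic growth factor, read 5.38 in intestinal mast cells, 7.66 with Dll1, 8.17 with TGF-beta1 and 7.74 in control BMMCs. Lgals3 (galectin-3) was 2.22-fold lower. Angpt1, the ligand of the endothelial receptor Tie2, read 9.94, 9.89, 8.34 and 9.78 and was 2.71-fold lower with TGF-beta1 than in control BMMCs. Hbegf, a ligand of the EGF receptor, was 2.76-fold higher with Dll1 than in control BMMCs.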
